A study of Mus musculus with 6 samples.

Results

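The genes described here are 10 genes of AP-1 and of the immediate-early response, known for fast induction by growth and stress signals. They are the 4 Fos family genes Fos, Fosb, Fosl1 and Fosl2, the 3 Jun family genes Jun, Junb and Jund, and Atf3, Egr1 and Ier2. They were taken by gene symbol from a table of 24493 genes, and all 10 had a row. The libraries came from mouse pancreatic tumor cells of the clonal line 6419c5, grown as tumors under the skin of C57BL/6 mice and then sorted. In 2 libraries, called GAFCP, the tumors had received gemcitabine, abraxane, a CD40 agonist and blockade of both CTLA-4 and PD-1. The other 4 libraries were controls without this treatment. Gemcitabine is a nucleoside analog that stops DNA synthesis, abraxane is albumin-bound paclitaxel, an agonist of CD40 stimulates cells that present antigen, and the blocked receptors CTLA-4 and PD-1 restrain T cells. Every library thus shares 1 tumor line, while doses, times of sampling, animal ages and the sorting gate were not given in the sources used here.

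AP-1 is a pair of proteins joined through leucine zippers. Jun proteins can pair with each other or with Fos proteins, whereas Fos proteins need a Jun partner to bind DNA well. Growth factor, cytokine and stress signals reach the Fos, Jun and Egr1 genes through MAP kinases and act on proteins already present in the cell, which is why such genes are called immediate-early. The same genes are also known to respond to enzymatic digestion and sorting of tissue.

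In the GAFCP libraries 9 of the 10 genes rose and Ier2 fell. The increases ranged from 1.21-fold for Junb to 5.78-fold for Atf3, as ratios of mean TPM (a transcript abundance corrected for transcript length and library total). The 4 Fos family genes rose by 1.74 to 3.69-fold and the 3 Jun family genes by 1.21 to 1.68-fold. All 10 genes were tested, with limma on log2(TPM + 1) over 13720 genes that had at least 1 TPM in at least 2 libraries, and called at a Benjamini-Hochberg adjusted p under 0.05. Both GAFCP libraries lay above all controls for 9 genes and below them for 1, against 24.7% and 36.9% of the tested genes. The background of calls was high: 47.5% of the tested genes were called, 19% higher and 28.5% lower. The median log2 change was 0.76 over the 10 genes and -0.07 over all genes tested. With median-of-ratios scaling the called genes divided into 3449 higher and 3425 lower, against 2606 higher and 3909 lower without it. Each of the 10 genes kept its direction and its call under that scaling. Whether the libraries came from different mice is not stated in the labels, and the p-values therefore cover library-to-library spread alone, which may be technical.

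**Figure D1:**
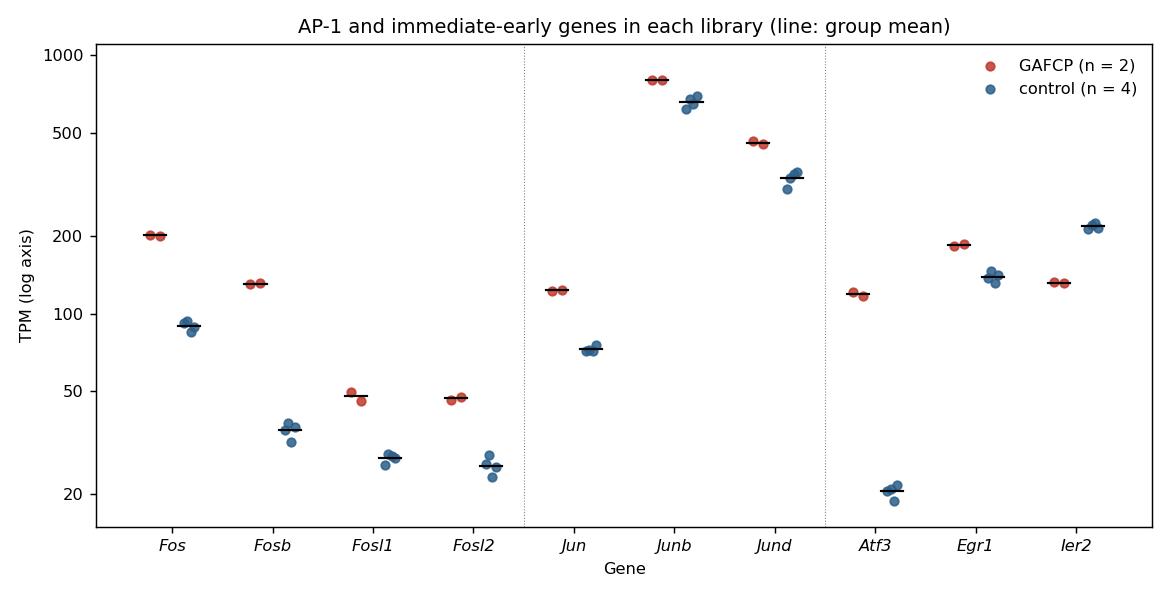
TPM on a log axis of the 10 genes in each library, with GAFCP (2 libraries) left of control (4 libraries) for each gene and a line at each group mean. The GAFCP points lie above all control points for 9 genes and below them for Ier2, where the groups averaged 131.6 and 217.2 TPM.

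The tumor identity and the presence of other cells were read from marker genes in the same libraries. The epithelial keratins Krt8 and Krt19 averaged 1544 and 1021 TPM with GAFCP and 2321 and 1615 TPM in controls. The keratin Krt18 and the adhesion gene Cdh1 averaged 1691 and 332 TPM with GAFCP and 1766 and 358 TPM in controls. Neither Krt18 nor Cdh1 was called (limma adjusted p = 0.16 and 0.21). The epithelial adhesion gene Epcam was at 1.68 and 1.39 TPM with GAFCP, against 12.5 to 13.1 TPM in controls (log2 change -2.45, limma adjusted p = 2.1e-07). Cldn4, a tight junction gene, was the marker of that list called higher (log2 change 0.57, adjusted p = 0.0041). Macrophage and monocyte markers summed to 3421 and 3432 TPM with GAFCP and to between 1053 and 1102 TPM in controls, and all 14 were called higher. The 8 pan-leukocyte markers, all called higher, summed to 301.6 and 310.6 TPM with GAFCP and to between 102.4 and 121.1 TPM in controls. T and NK cell markers summed to 40.1 and 35.8 TPM with GAFCP and to between 5.37 and 7.59 TPM in controls, with 8 of 8 tested called higher. Neutrophil markers summed to 99.3 and 109.9 TPM with GAFCP and to between 26.5 and 30.7 TPM in controls, with 5 of 6 tested called higher. Ly6g, a defining neutrophil marker of that list, was listed at 0 in GAFCP library 1 and control library 1 and stayed at or under 0.184 TPM in the others. The fibroblast and pericyte sum was 331.4 and 331.0 TPM with GAFCP and 214.1 to 236.6 TPM in controls (6 called higher and 2 lower of 10 tested). Endothelial markers summed to 13.0 and 12.4 TPM with GAFCP and to between 9.53 and 10.2 TPM in controls, with 2 called higher and 1 lower of 4 tested. The epithelial sum was lower with GAFCP, at 5104 and 5134 TPM against 6696 to 7073 TPM in controls (1 called higher and 5 lower of 8 tested). A two-sided exact permutation test gave p = 0.0667 for each of the 7 sums, the smallest that 15 arrangements allow (0.0667 also after adjustment over the 7 lists). Immune cells also express Fos, Jun and Atf3, and the part of these cells in the results was not tested. In bulk libraries fewer cells of a type and less RNA per cell cannot be told apart.

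**Figure D2:**
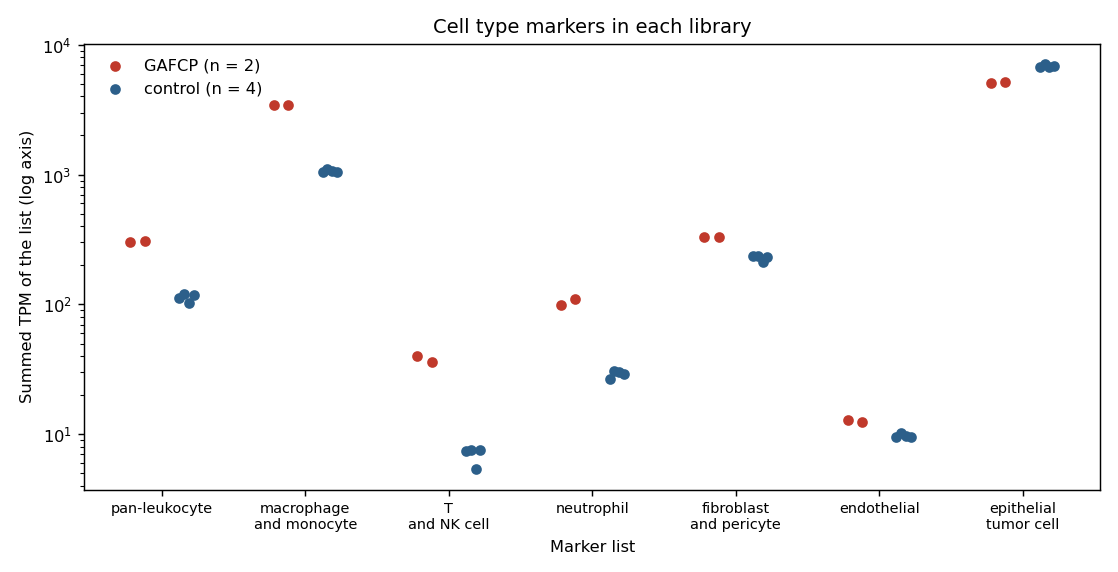
Summed TPM of 7 cell type marker lists in each library on a log axis, GAFCP left of control. The macrophage and monocyte sum was 3421 and 3432 TPM in the GAFCP libraries and at most 1102 TPM in the controls, whereas the epithelial tumor cell sum was lower with GAFCP.

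The promoters of genes that moved together are shown for a cyclic AMP response element (CRE) and its core, because CREB, ATF and Jun proteins bind such letters. RefSeq promoters on GRCm38.p6, the mm10 assembly, were matched for 7 of the 10 genes, and the 250 bases before the RefSeq start were searched. The RefSeq start was not always near the gene start in GENCODE M21. For Atf3 and Fosl2 the bases searched lay inside the GENCODE gene. Those of Atf3 ended at 191183334, whereas the minus-strand gene starts at 191218039. Those of Jund ended at 70697738, before the GENCODE start at 70698949. Which starts were used in these libraries was not tested. The core TGACG, read on both strands, was in 4 of the 7 (Fos, Fosb, Junb and Atf3) and in 17.8% of 32851 promoters of the same length. Jun held TGACATCA, a variant AP-1 site known from this promoter, which 2.93% of promoters hold. The complete CRE TGACGTCA was in 0 of the 7 (1.55% of all promoters), the AP-1 site TGAGTCA in 0 of the 7 (4.46%) and the CArG box, the binding sequence of serum response factor, in 0 of the 7 (1.47%). The core is part of the complete CRE, so these searches overlap. Egr1, Fosl1 and Ier2 had no matched promoter and were not searched. Sites more than 250 bases before the start would also be missed, so these counts do not show that the genes lack such sites. The 120 bases before the start follow, 5′ to 3′ on the strand of the gene, with TGACG, its reverse complement CGTCA or TGACATCA in capitals.
Fos (chr12:85473770-85473889, plus strand): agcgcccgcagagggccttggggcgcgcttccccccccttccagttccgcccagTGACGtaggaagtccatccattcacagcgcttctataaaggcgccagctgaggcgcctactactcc
Fosb (chr7:19310046-19310165, minus strand): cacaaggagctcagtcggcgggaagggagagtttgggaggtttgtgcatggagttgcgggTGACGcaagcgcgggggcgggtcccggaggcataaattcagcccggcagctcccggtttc
Junb (chr8:84978749-84978868, minus strand): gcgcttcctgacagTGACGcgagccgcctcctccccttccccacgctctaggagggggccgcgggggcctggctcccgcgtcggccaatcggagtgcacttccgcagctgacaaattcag
Jun (chr4:95052223-95052342, minus strand): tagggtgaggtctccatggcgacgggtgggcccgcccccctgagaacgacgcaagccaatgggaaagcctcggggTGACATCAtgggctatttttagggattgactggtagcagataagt
Atf3 (chr1:191183334-191183453, minus strand): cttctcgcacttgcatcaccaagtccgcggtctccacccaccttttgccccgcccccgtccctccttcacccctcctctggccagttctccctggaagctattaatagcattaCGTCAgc
The capitals lie 62 to 66 bases before the RefSeq start in Fos, 56 to 60 in Fosb and 102 to 106 in Junb. In Jun they lie 38 to 45 bases before it, and in Atf3 3 to 7. Fos held another core 125 to 129 bases before its start, outside the stretch shown. A match is a description of letters and does not show that a factor was bound.

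Fos, the founding member of its family and the Jun partner in the classical AP-1 dimer, lies on chromosome 12 from 85473890 to 85477273 (mm10, plus strand). It was at 201.5 and 199.6 TPM with GAFCP, against 92.1, 93.5, 84.9 and 88.9 TPM in control libraries 1 to 4. The GAFCP libraries were both more than 2 times the highest control library. The log2 change was 1.15 ± 0.05 (SE; limma adjusted p = 8.1e-07), the 560th largest increase of the 13720 genes tested.

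Fosb, which encodes a close relative of Fos and, by alternative splicing, the stable truncated protein known as delta-FosB, lies on chromosome 7 from 19302696 to 19310051 (minus strand). Its level was 130.4 and 130.7 TPM with GAFCP, against 35.4, 37.8, 31.8 and 36.4 TPM in controls. This was the strongest change within the Fos and Jun families, 1.86 ± 0.07 on the log2 scale (SE; limma adjusted p = 5.1e-07). The values are per gene, so the 2 protein forms of Fosb cannot be told apart.

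Fosl1 and Fosl2 encode FRA1 and FRA2, Fos-like proteins that lack the strong activation domain of Fos. Fosl1 (chromosome 19, 5447547 to 5455946, plus strand) was at 49.7 and 46.0 TPM with GAFCP, against 25.9, 28.7, 28.1 and 27.5 TPM in controls. Fosl2 (chromosome 5, 32135801 to 32157842, plus strand) was at 46.2 and 47.8 TPM with GAFCP, against 26.1, 28.5, 23.4 and 25.5 TPM in controls. Both genes stood near each other in level in both groups, and their ranges overlapped within each group. Their log2 changes were 0.77 ± 0.06 and 0.84 ± 0.07 (SE; limma adjusted p = 2.7e-05 and 6.6e-05). Fosl1 overlaps Ccdc85b on the opposite strand in GENCODE M21, and how the counting treated strand was not given in the sources used here. Ccdc85b averaged 13.2 ± 0.576 TPM with GAFCP (SD, n = 2) and 14.9 ± 0.988 TPM in controls (SD, n = 4).

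Jun, the partner that can also form AP-1 with itself, lies on chromosome 4 from 95049034 to 95052222 (minus strand). It was at 122.6 and 123.1 TPM with GAFCP, against 71.8, 72.5, 71.6 and 75.6 TPM in controls, with no overlap. The log2 change was 0.74 ± 0.04 (SE; limma adjusted p = 3.7e-06).

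Junb, a Jun protein with weaker activation on its own that can oppose Jun, was the most abundant of the 10 genes in both groups (chromosome 8, 84974484 to 84978718, minus strand). Its level was 795.0 and 797.9 TPM with GAFCP, against 615.8, 673.0, 645.3 and 692.4 TPM in controls. The increase was the smallest of the 9, 0.28 ± 0.05 on the log2 scale (SE; limma adjusted p = 0.002), but both GAFCP libraries exceeded every control. With quantile normalization the log2 change of Junb was 0.15, still called. In GENCODE M21 Junb overlaps Prdx2 on the opposite strand. Prdx2, a peroxiredoxin gene, was at 346.9 and 360.5 TPM with GAFCP and between 455.1 and 479.0 TPM in controls, the opposite direction to Junb. Jun, Jund and Atf3 also overlap genes on the opposite strand there (Junos, Gm11175 and Gm24748), which were not analysed here.

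Jund, the Jun family gene usually present in resting cells, was second in level (chromosome 8, 70698949 to 70700616, plus strand). It was at 462.2 and 449.8 TPM with GAFCP, against 301.4, 332.6, 346.0 and 353.2 TPM in controls, and control library 1 was the lowest. The log2 change was 0.45 ± 0.06 (SE; limma adjusted p = 0.00064).

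Atf3, a bZIP protein that pairs with Jun proteins and often represses its targets, had the largest change of the 10 (chromosome 1, 191170296 to 191218039, minus strand). It was at 121.0 and 117.0 TPM with GAFCP, against 20.6, 21.0, 18.9 and 21.8 TPM in controls. The log2 change was 2.48 ± 0.06 (SE; limma adjusted p = 6.8e-08), the 75th largest increase of all genes tested. By mean TPM over all 24493 genes Atf3 was 1112th in the GAFCP group and 5829th in controls.

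Egr1, a zinc finger factor induced by the same ERK and serum response factor route as Fos, lies on chromosome 18 from 34859823 to 34864984 (plus strand). It was at 182.0 and 186.3 TPM with GAFCP, against 136.9, 146.1, 130.9 and 141.3 TPM in controls. Its log2 change of 0.41 ± 0.05 was smaller than that of Fos (SE; limma adjusted p = 0.0003), and the 95% intervals of the log2 changes, 0.29 to 0.52 for Egr1 and 1.04 to 1.26 for Fos, did not overlap. The difference between the genes was not tested.

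Ier2, a small serum-induced nuclear regulator, was the exception (chromosome 8, 84661331 to 84662852, minus strand). It was at 132.6 and 130.6 TPM with GAFCP, against 211.8, 219.3, 224.6 and 213.1 TPM in controls. All control libraries were therefore well above both GAFCP libraries. Ier2 changed by -0.72 ± 0.04 on the log2 scale (SE; limma adjusted p = 3.2e-06), the 801st largest decrease of the genes tested.

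**Figure D3:**
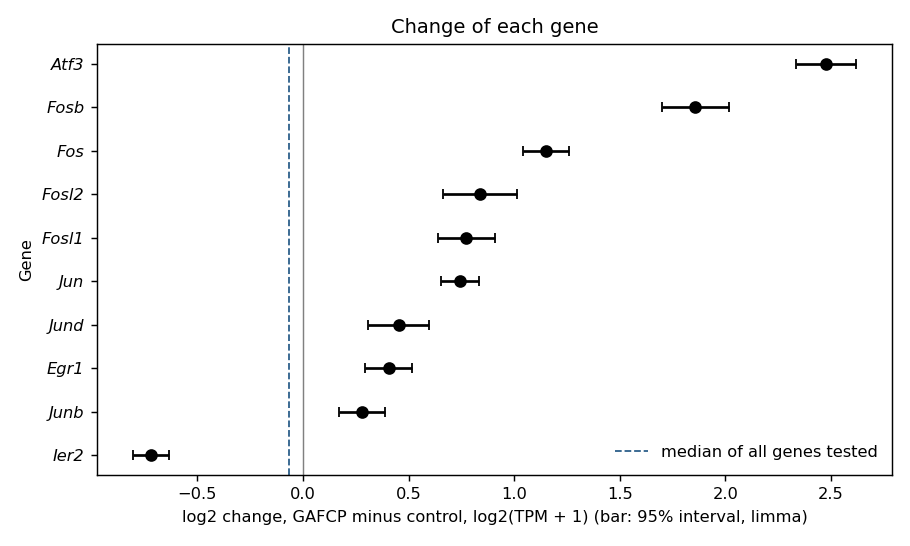
Log2 change of each gene on the log2(TPM + 1) scale, GAFCP minus control, with its 95% interval from limma. Atf3 is at 2.48, Fosb at 1.86 and Fos at 1.15, Ier2 alone lies below 0, and the dashed line marks the median of all genes tested at -0.07.

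The order of the 10 levels differed between the groups. With GAFCP it was Junb, Jund, Fos, Egr1, Ier2, Fosb, Jun, Atf3, Fosl1 and Fosl2, from high to low. In that group the ranges of Ier2 and Fosb overlapped, as did those of Fosl1 and Fosl2. In controls the order was Junb, Jund, Ier2, Egr1, Fos, Jun, Fosb, Fosl1, Fosl2 and Atf3, and the ranges of Fosl1 and Fosl2 overlapped. Atf3, at the bottom of the control order, passed both Fos-like genes in the GAFCP libraries.

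The Jun family was the more abundant in both groups, and the Fos family was larger relative to it in the GAFCP libraries. The summed TPM of the 4 Fos family genes was 427.8 and 424.0 with GAFCP, against 179.5, 188.5, 168.2 and 178.3 in controls. For the 3 Jun family genes the sum was 1380 and 1371 TPM with GAFCP, against 989.0, 1078, 1063 and 1121 TPM in controls. There were 3.22 and 3.23 Jun family transcripts per Fos family transcript with GAFCP, against 5.51 to 6.32 in controls, and these ranges did not overlap. Within the Fos family Fosb made up 30.5% and 30.8% with GAFCP, against 18.9% to 20.4% in controls. Fos itself made up 47.1% in both GAFCP libraries and between 49.6% and 51.3% in controls. Fosl1 made up 11.6% and 10.8% of the family sum with GAFCP, against 14.4% to 16.7% in controls, although its own level was higher. Within the Jun family Jun made up 8.88% and 8.98% with GAFCP, against 6.73% to 7.26% in controls, and Junb 57.6% and 58.2% with GAFCP, against 60.7% to 62.4% in controls. These sums describe transcripts and not proteins or dimers, and no test was made on sums over the genes described.

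**Figure D4:**
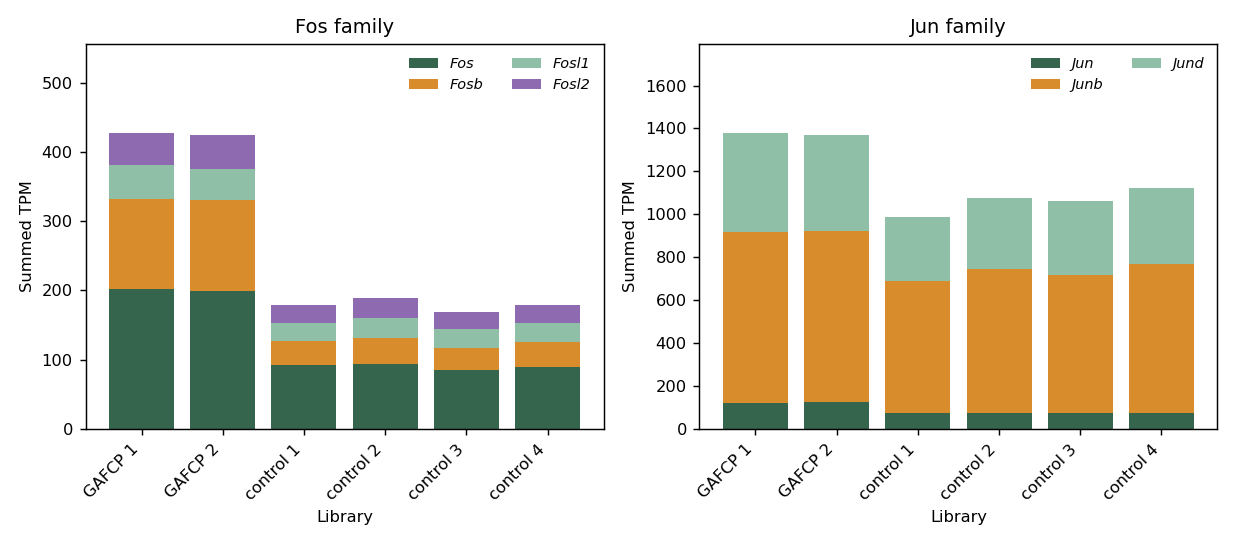
Summed TPM per library of the Fos family (left) and the Jun family (right), stacked by gene, GAFCP libraries first. The Fos family stacks reach 427.8 and 424.0 TPM with GAFCP and at most 188.5 TPM in controls, with a wider Fosb band, and the Jun family stacks reach 1380 and 1371 TPM against at most 1121 TPM.

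Features of the genes themselves were also described. In GENCODE M21 the 10 genes lie on 8 chromosomes, and 4 of them (Jun, Junb, Jund and Ier2) have a principal transcript with 1 exon. Immediate-early transcripts are known for AU-rich elements in the 3′ untranslated region that speed their decay. The pentamer ATTTA was in the longest annotated 3′ untranslated region of 9 of the 10 genes and of 68.3% of 12484 tested genes with such a region. Fos had 4 copies in 815 bases, Jun 4 in 1233 bases, Junb 2 in 485 bases and Atf3 3 in 1186 bases, the densest of the 10. Fosb, second in size of increase, had 1 copy in 2302 bases, Fosl1 1 in 638 and Jund 1 in 533. Fosl2 had 8 copies in 4653 bases and Egr1 2 in 1216. The median over the 10 genes was 1.80 copies per kilobase, against 1.26 over the tested genes. Ier2, the gene that fell, had 0 copies in 755 bases. Whether the pentamer has a part in the size or direction of the changes was not tested. The longer element TTATTTATT was in Fos and Fosl2 (2 of the 10) and in 7.92% of the tested genes.

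Other bZIP genes whose proteins can join AP-1 or Jun and Fos partners mostly rose too. Of 11 tested, 8 were called higher and 1 lower, 81.8% against 47.5% of all genes, with a median log2 change of 0.64. Batf2, an interferon-linked bZIP gene, averaged 57.0 ± 0.888 TPM with GAFCP (SD, n = 2) and 8.42 ± 1.62 TPM in controls (SD, n = 4), a log2 change of 2.64 (limma adjusted p = 3.5e-06). The small Maf gene Maff and the large Maf gene Maf had log2 changes of 0.64 and 0.75. Atf2, a stress-kinase target that pairs with Jun, was the gene called lower (log2 change -0.26, adjusted p = 0.014). The Atf2 call was lost without GAFCP library 1 or 2, where the count lower was 0, and without control library 3 the count lower was 2.

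Most of the further immediate-early genes rose. Of 27 tested, 20 were called higher and 2 lower, 81.5% against 47.5% of all genes, with a median log2 change of 0.61. Ier3, a stress-inducible gene that influences cell survival, was at 877.8 and 856.7 TPM with GAFCP, against 319.8 to 348.3 TPM in controls (log2 change 1.39, limma adjusted p = 1.4e-07). Arc averaged 15.5 ± 1.22 TPM with GAFCP and 3.20 ± 0.219 TPM in controls (SD), and Csrnp1, an AXIN1-induced nuclear factor, 33.8 ± 2.46 TPM with GAFCP and 8.71 ± 0.690 TPM in controls (SD). The zinc finger gene Klf4 changed by 0.80. The Egr1 relatives Egr2 and Egr3 were under 3.5 TPM in every library and did not pass (adjusted p = 0.10 for each), and Egr4 was listed at 0 throughout. Myc and Mcl1 were the genes called lower, by -0.17 and -0.14 on the log2 scale. Without GAFCP library 1 or 2 the count lower was 0, and without control library 1, 2 or 4 it was 1.

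Few transcripts of the proteins that relay signals to these genes passed the test. Of 16 kinases and factors tested, 2 were called higher and 1 lower, 18.8% against 47.5% of all genes, with a median log2 change of -0.04. Srf, which binds the CArG box, averaged 27.1 ± 0.412 TPM with GAFCP and 22.7 ± 1.24 TPM in controls (SD; log2 change 0.25, limma adjusted p = 0.012). Crem, a cyclic AMP-responsive bZIP gene, was at 22.4 and 19.7 TPM with GAFCP and between 8.59 and 11.1 TPM in controls (adjusted p = 0.00014). Mapk3, which encodes the kinase ERK1, changed by -0.32 (adjusted p = 0.00021). Kinase activity depends on phosphorylation, which RNA does not measure. The Srf call was lost without GAFCP library 1 or 2, where the count higher was 1, and without control library 3 the count lower was 5.

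Among repressors and feedback genes, 5 of 12 were called higher and 2 lower, 58.3% against 47.5% of all genes, with a median log2 change of 0.02. Dusp1, a phosphatase that switches off MAP kinases and is itself immediate-early, was at 211.0 and 215.3 TPM with GAFCP and between 98.4 and 105.1 TPM in controls (log2 change 1.06, limma adjusted p = 6.4e-07). The ERK phosphatases Dusp5 and Dusp6 changed by 0.64 and 0.47. Rfwd2, a ubiquitin ligase for Jun also called Cop1, changed by -0.45 (adjusted p = 0.00045). Nab2, which binds and restrains Egr1, changed by 0.34 (adjusted p = 0.0029). Spry4, the other gene called lower (log2 change -0.28, adjusted p = 0.023), was not called without GAFCP library 1 or 2 or without control library 1 or 2, where the count lower was 1.

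Genes often described as AP-1 targets were frequently called. Of 23 tested, 17 were called higher and 4 lower, 91.3% against 47.5% of all genes, with a median log2 change of 0.61. Mmp3, a stromelysin with a well-known AP-1 site, averaged 76.8 ± 1.51 TPM with GAFCP (SD, n = 2) and 10.6 ± 0.551 TPM in controls (SD, n = 4), a log2 change of 2.74 (limma adjusted p = 4.1e-08). The collagenase gene Mmp13 changed by 1.94 and the heme oxygenase gene Hmox1 by 1.97. Among the genes called lower were Ccnd1, Spp1 and Cd44, with log2 changes of -0.57, -0.28 and -0.18. The Cd44 call was lost without GAFCP library 1 or 2 and without control library 1, 2 or 4. Spp1, which encodes osteopontin, was the most abundant of the list in both groups, at 9728 ± 74.8 TPM with GAFCP and 11835 ± 234 TPM in controls (SD). Mmp9 and Il11 did not pass (adjusted p = 0.46 and 0.053). These genes have other regulators as well, and macrophages and fibroblasts express several of them.

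Atf3 is a member of the integrated stress response downstream of Atf4. Of 10 genes of that response 5 were called higher and the others did not pass, with a median log2 change of 0.21. The share called was 50%, near the 47.5% of all genes. Atf4 itself averaged 177.8 ± 3.61 TPM with GAFCP and 144.7 ± 6.37 TPM in controls (SD; log2 change 0.30, adjusted p = 0.0014). Ddit3, which encodes CHOP, changed by 0.43, the C/EBP gene Cebpb by 0.88 and the lipoprotein receptor gene Vldlr by 0.53. Trib3, Chac1 and Asns, targets of Atf4, had log2 changes of 0.11, -0.17 and -0.01 and did not pass. Without control library 3, 1 gene of the list was called lower.

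**Figure D5:**
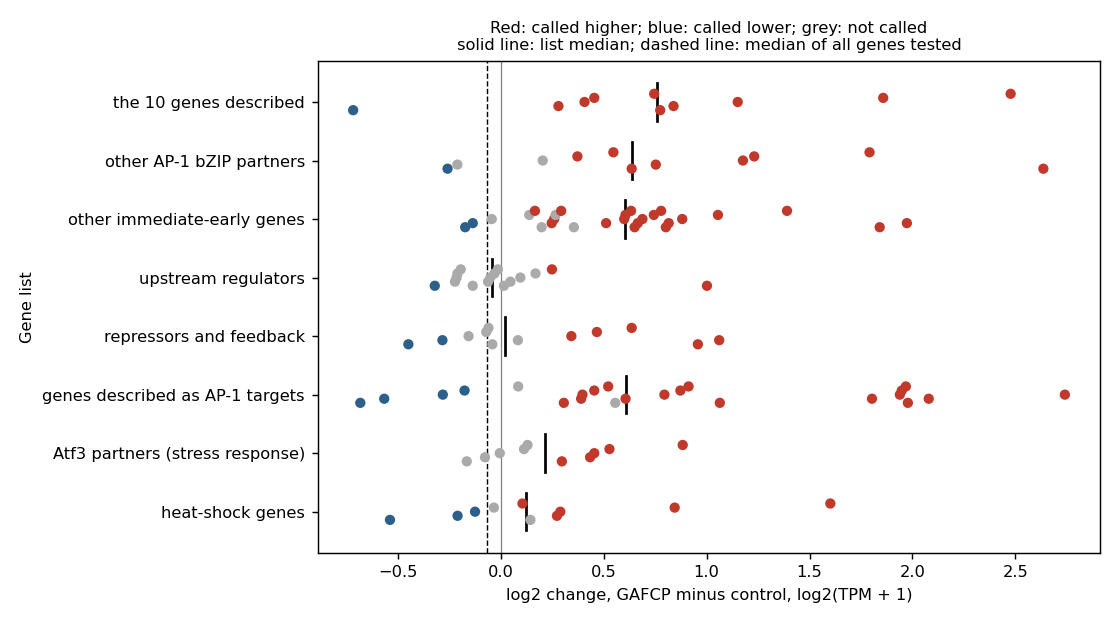
Log2 change, GAFCP minus control, of every tested gene in 8 lists, with a solid line at each list median and a dashed line at the median of all genes tested. The 10 genes described have a median of 0.76, and the upstream regulators, with a median of -0.04, gather near 0.

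Heat-shock genes, which also respond to tissue digestion, moved both ways. Of 10 tested, 5 were called higher and 3 lower, 80% against 47.5% of all genes, with a median log2 change of 0.12. Hspa1a and Hspa1b, the inducible HSP70 genes, which are near-identical copies so that reads may be divided between them, changed by 1.60 and 0.84. Hspb1, a small heat-shock protein gene, changed by -0.54 and the HSP90 gene Hsp90aa1 by 0.27. Hsp90ab1, the most abundant of the list over all 6 libraries, was at 1969 and 1993 TPM with GAFCP and between 1889 and 2125 TPM in controls (adjusted p = 0.58). The part of sample handling in the changes of the immediate-early genes was not tested.

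Likeness of pattern was measured as the Euclidean distance over the 6 libraries between profiles of log2(TPM + 1) minus the control mean, among 10058 other genes whose mean reached 5 TPM, predicted gene names (Gm and Rik) left out. The genes nearest to Fos were Sdc4 (distance 0.0320), Il5ra (0.0518) and Enc1 (0.0617). Nearest to Jun were Tmem106a (0.0572), Oasl1 (0.0787) and Ctsb (0.0944). Those nearest to Egr1 included C1qtnf1 (0.0325) and Ndel1 (0.0397). For Atf3 they were Gbp7 (0.166), Inhba (0.190) and Pgf (0.191), farther away than the neighbors given for the other three genes. Since the treatment separates the libraries, such a distance mainly compares the size of the change and the spread among controls.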

How the data were processed

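Sorted tumor cells gave RNA that a company sequenced, according to the labels' protocols. The authors deposited gene-level TPM, 24493 genes by 6 libraries, naming Salmon and mm10 per the submitters' processing notes. Version, annotation and strand setting were not given in the sources used here. Because TPM sets every library to 1 total, depth is unknown and no counting intervals are printed. The gene Mir6236 took 7.59% to 11.2% of that total. Sample titles gave the groups and replicate numbers.

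A gene entered the fit when 2 or more libraries reached 1 TPM, which left 13720. The fit used limma 3.58.1 in R 4.3.3 on log2(TPM + 1), allowing the variance to follow the mean (4 residual degrees of freedom). Adjusted p-values cover every gene in the fit. A log2 change is GAFCP minus control and understates changes of genes at low TPM. Alternatives changed the pseudocount, the filter, the scaling, the variance model, the controls used and the replicate block, or left out a library.

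The 10 genes, the gene lists and the rule for named genes were chosen with earlier results of these data known. Up to 4 called genes per list with the smallest p and a mean of at least 5 TPM were named, plus the most abundant gene. Some genes that the rule names are not reported here. Genes named beyond the rule, after their values were seen, were Atf2, Egr2, Egr3, Egr4, Myc, Mcl1, Nab2, Spry4, Ccnd1, Cd44, Mmp9, Il11, Trib3, Chac1, Asns, Ly6g, Krt8, Krt18, Krt19, Epcam, Cdh1, Cldn4, Ccdc85b and Prdx2. Gene positions span whole genes in GENCODE M21 (GRCm38, that is mm10). Promoter sequences are from RefSeq on GRCm38.p6.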

Additional observations from a re-analysis of the deposited data

Results flagged for a closer look

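The summed TPM of the T and NK cell markers in control library 3 was 5.37, below the 7.38, 7.59 and 7.59 TPM of control libraries 1, 2 and 4. The gap made up 0.909 of the range of the 4 controls, past the 95% limit of Dixon's test. Both GAFCP libraries lay above all controls, at 40.1 and 35.8 TPM. Of 20 control groups looked at in this way, 1 stood out, and chance alone gives about 1 in 20. None of the 10 AP-1 and immediate-early genes did so.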

How the results depend on the processing

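The 10 genes kept their direction and their call in all 18 alternatives. The log2 change stayed within 2.28 to 2.54 for Atf3, 1.75 to 1.92 for Fosb, 1.09 to 1.21 for Fos and -0.77 to -0.65 for Ier2. The largest adjusted p was 0.02, for Junb without GAFCP replicate 2. With the replicate number as a block (replicate block), the adjusted p was between 0.0007 for Atf3 and 0.0176 for Junb. Same-numbered libraries did not deviate together over all tested genes (Pearson r across genes -0.0073 and -0.0195). With 2 GAFCP libraries their deviations from the group mean are mirror images, so these values cannot decide whether the numbers pair the samples. The labels do not state such a pairing. The block left 1 residual degree of freedom.

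Some counts moved, and the cause was not tested. Leaving out 1 library gave 1715 to 2610 genes higher and 2514 to 4641 lower over the whole table, both lowest counts coming without a GAFCP library, where the other is assumed to vary as the controls do. In the lists that range was 0 to 2 lower for other AP-1 partners and for other immediate-early genes, 1 to 2 higher and 1 to 5 lower for upstream regulators, 1 to 3 lower for repressors and feedback genes and 0 to 1 lower for stress response genes. With control libraries 1 and 2 alone 2 other AP-1 partners and 7 upstream regulators were lower. Control libraries 3 and 4 alone gave 0 lower partners, 0 lower immediate-early genes and 1 lower feedback gene. The replicate block gave 2 lower partners, and 1 higher and 2 lower upstream regulators. Median-of-ratios scaling gave 4 higher upstream regulators and 1 lower immediate-early gene. No filter and no mean-variance trend also gave 1 lower immediate-early gene. Rescaling without the 50 most abundant genes gave 3 lower upstream regulators and 1 lower stress response gene, and quantile normalization gave 2 and 1. Averaging the log2 values of a family instead of summing its TPM gave a change of 1.16 against 1.25 for Fos genes and 0.49 against 0.37 for Jun genes. Sequencing depth is unknown, and 2 GAFCP libraries limit the precision.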
